A study of Mus musculus with 12 samples.

Results

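Small heat shock proteins and their co-chaperone Bag3 were followed at the RNA level in isolated muscle fibres of the mouse. The set was chosen by gene symbol, with earlier results of these data known. It held 6 genes, Cryab, Hspb1, Hspb6, Hspb7, Hspb8 and Bag3, of the 56162 features in the count table. All 6 had counts high enough to be tested. The 12 libraries came from male C57BL/6J mice whose age the labels give as 8 weeks, and fell into 4 groups of 3: type I fibres of untrained mice, type I fibres of trained mice, type IIb fibres of untrained mice and type IIb fibres of trained mice. Training was treadmill running at 12 to 16 m/min for 60 min on 5 days a week over 6 weeks, and tissue was taken 3 days after the last run. Type I fibres were taken from the soleus after 90 min in collagenase and type IIb fibres from the extensor digitorum longus after 60 min, both at 2 mg/ml, so fibre type, muscle of origin and digestion time cannot be told apart in any comparison of the fibre types. Each fibre was cut in 2, with one piece used to identify its myosin heavy chain protein and the other for the library. The labels do not say whether the 3 libraries of a group came from separate mice, so p-values measure the spread between these libraries only.

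Small heat shock proteins are chaperones that work without ATP: they bind partly unfolded proteins and hold them soluble until other chaperones refold them or pass them on for degradation. In striated muscle they sit at the Z-disc and on desmin and titin filaments, where contraction puts proteins under mechanical load. Cryab (αB-crystallin), Hspb1 and Hspb6 form mixed oligomers, and Hspb8 binds Bag3, which links it to Hsc70 (Hspa8) and the ubiquitin ligase Stub1 and hands damaged filamin C to autophagy. Transcription of several of these genes is driven by heat shock factors, which bind repeats of an inverted GAA and TTC unit.

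The DNA before the transcription start is shown for the genes whose fibre-type results differed most in kind: Hspb1 and Hspb6, which passed the test, Hspb7, which was nearly absent from type IIb fibres, and Hspb8, whose mean level differed little. The 250 bases before each start come from RefSeq (GRCm38.p6) and run 5′ to 3′ on the gene's strand, with capitals marking each match to GAANNTTC, a pair of heat shock units. RefSeq promoter windows were matched for 5 of the 6 genes, Hspb6 having a pair of starts of which the downstream one is shown. Cryab is named only.
Hspb1, chr5:135887669-135887918, plus strand: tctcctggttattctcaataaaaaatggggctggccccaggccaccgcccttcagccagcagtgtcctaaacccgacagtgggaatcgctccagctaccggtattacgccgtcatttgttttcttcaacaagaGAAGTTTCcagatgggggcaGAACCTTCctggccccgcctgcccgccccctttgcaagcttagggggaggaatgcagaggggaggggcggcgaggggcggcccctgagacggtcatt
Hspb6, chr7:30553051-30553300, plus strand: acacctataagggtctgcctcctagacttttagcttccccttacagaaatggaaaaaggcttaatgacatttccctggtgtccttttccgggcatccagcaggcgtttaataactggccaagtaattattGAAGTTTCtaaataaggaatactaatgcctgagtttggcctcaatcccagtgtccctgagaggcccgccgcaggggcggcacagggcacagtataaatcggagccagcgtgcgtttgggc
Hspb7, chr4:141420529-141420778, plus strand: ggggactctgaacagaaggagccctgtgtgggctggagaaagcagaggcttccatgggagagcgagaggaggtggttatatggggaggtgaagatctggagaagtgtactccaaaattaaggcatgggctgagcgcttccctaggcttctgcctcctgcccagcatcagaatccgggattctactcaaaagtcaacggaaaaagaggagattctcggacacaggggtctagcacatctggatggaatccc
Hspb8, chr5:116422865-116423114, minus strand: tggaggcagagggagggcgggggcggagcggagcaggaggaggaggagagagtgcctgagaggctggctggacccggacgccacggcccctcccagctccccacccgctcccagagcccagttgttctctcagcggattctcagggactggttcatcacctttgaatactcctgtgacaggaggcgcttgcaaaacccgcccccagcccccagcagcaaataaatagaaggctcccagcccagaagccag

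The searched window of 300 bases ran from 250 before to 50 after the start, on both strands. Hspb1 held 2 copies of the pair, GAAGTTTC and GAACCTTC, the first beginning 117 bases before the start. Hspb6 held 1, GAAGTTTC, 120 bases before its downstream start, and none at its upstream start. In Hspb8 and Bag3 the single match, again GAAGTTTC, lay in the transcribed part, at base 3 and base 43 counted from the start. Hspb7 held none. The same 8-letter pattern was present in 7.86% of the 32851 mouse windows, and the outward pair TTCNNGAA, present in 8.52%, was found in none of the 6 windows of these genes. These matches describe letters only. Of the 4 genes with the pair, Hspb1 and Hspb6 were called higher in type I fibres, and Hspb8 and Bag3 were not called. Hspb7, without a pair, was called too, as was Cryab, for which no window was matched. These calls are for trained and untrained mice averaged, where 1.11% of all genes tested were called higher.

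Sequencing depth ranged from 8026397 to 24995288 counts per library, and the number of genes with at least 10 counts moved with the groups. In type I fibres it ran from 9711 to 14428 without training and from 6082 to 11852 with it. In type IIb fibres it ran from 3636 to 9170 without training and from 4291 to 10932 with it. A fit with this number as a covariate is given where it changes a result. Levels of single genes are given as CPM, the count divided by the library total after trimmed-mean scaling (TMM) and multiplied by 1e+06. Sums over markers or listed genes are in CPM of the unscaled library total. For comparing genes with each other the authors' FPKM values were used, which divide by gene length and by the unscaled total. The TMM factors ran from 0.687 to 1.62, so scaled and unscaled values are in different units. Fibre identity was clear from the markers. The 8 type I markers, Myh7 among them, gave 46334 to 84445 CPM together in the 6 type I libraries and 1.16 to 47.5 CPM in the 6 type IIb libraries. The 8 type IIb markers, Myh4 among them, gave 82463 to 161114 CPM in the type IIb and 419 to 4898 CPM in the type I libraries. RNA of other cells was not evenly spread. Summed markers of endothelial cells ranged over 54.4 to 1737 CPM where type I fibres were untrained (10 of 10 markers counted), 1.13 to 222 where they were trained (9 of 10, Esam at 0), 0 in type IIb untrained (0 of 10, so Pecam1, Cdh5 and Kdr were at 0) and 0 to 257 in type IIb trained libraries (10 of 10). Fibroblast markers summed to 27 to 9492, 54 to 138, 0.103 to 10.6 and 0.527 to 305 CPM in the same order of groups. Fits without the 3 libraries of highest endothelial content are given beside the results they change.

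**Figure D1:**
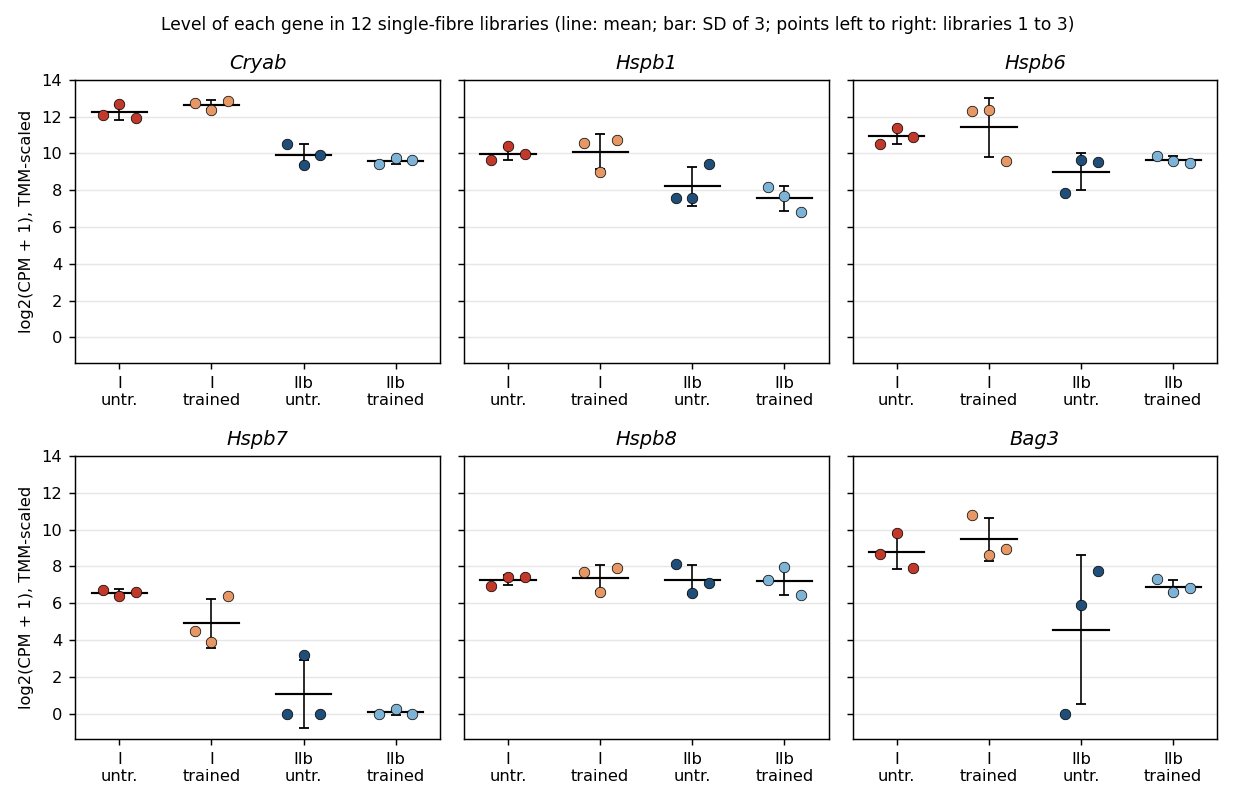
Level of the 6 genes in each of the 12 libraries as log2(CPM + 1) with TMM scaling (vertical axis) by group (horizontal axis); points are libraries 1 to 3 from left to right, lines the mean and bars the SD of 3. Cryab, Hspb7 and Bag3 were higher in all 6 type I than in all 6 type IIb libraries, as were 2.50% of all genes tested. Bag3, with nearest libraries at 240.0 and 215 CPM, was not called. Hspb8 lay between 86.6 and 284 CPM throughout.

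Type I fibres contained more RNA of Cryab, Hspb1, Hspb6 and Hspb7 than type IIb fibres. In counts pooled over trained and untrained mice the difference was about 6-fold, 4-fold, 3-fold and over 40-fold. The averaged log2 fold changes given below are a different measure. For Hspb8 no difference was detected, and Bag3 was about 5-fold higher in type I fibres in pooled counts but too variable between libraries to pass the test. With edgeR's quasi-likelihood test over the 11747 genes tested, 4 of the 6 were called higher in type I fibres at an adjusted p under 0.05. This was in the comparison that averages the log2 fold changes of trained and untrained mice, in which 1.11% of all genes were called higher. In untrained mice alone 1 of the 6 was called higher, Cryab, against 0.255% of all genes, and in trained mice alone again Cryab only, against 0.238%. These values are shares of each library's RNA, so more RNA of a gene in a fibre and less RNA of other genes or cells cannot be told apart. The median log2 fold change of the 6 was 2.37 in the averaged comparison, beside a median of 0.60 over all genes tested. Because the 6 were chosen with earlier results of these data known, their excess over all genes is a description and no independent test.

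Cryab, αB-crystallin, was the most abundant of the set. It stood at 4295, 6595 and 3897 CPM in libraries 1 to 3 of type I untrained fibres and at 6776, 5248 and 7295 CPM in type I trained fibres. In type IIb fibres it stood at 1457, 664 and 956 CPM without training and at 678, 858 and 787 CPM with it. Every type I library was thus above every type IIb library. The difference came to a log2 fold change of 2.26 (SE 0.36, n = 3 against 3, edgeR adjusted p = 0.00293) in untrained mice and of 3.06 (SE 0.37, edgeR adjusted p = 0.000119) in trained mice. Averaged, it was 2.66 (SE 0.26, edgeR adjusted p = 2.49e-06), or 6.02-fold in pooled counts, and its p ranked 15 among all genes. Without the 3 libraries of highest endothelial content it was 2.78 (edgeR adjusted p = 7.08e-10). The calls in the single comparisons were lost with limma-voom and quality weights (adjusted p = 0.0506 in untrained and 0.0968 in trained mice) and, for untrained mice, when only those 6 libraries were fitted (edgeR adjusted p = 0.0540).

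Cryab lies at chr9:50751325-50756636 (mm10, plus strand, ENSMUSG00000032060) head to head with Hspb2, another small heat shock gene on the opposite strand, and 17% of its exon bases overlap Hspb2. Libraries of this kind do not keep the strand, so reads in the overlap cannot be assigned to either gene by strand. Of the Hspb2 exon bases, 30.2% overlap Cryab. In FPKM Cryab exceeded Hspb2 by 110.0 to 168 times in type I libraries and by 11.1 to 98.6 times in type IIb libraries. These ratios were taken after reads had been assigned, so they do not show how reads in the overlap were split. Hspb2 itself had a log2 fold change of 0.68 between the fibre types (SE 1.09, edgeR adjusted p = 0.887).

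Hspb1, the small chaperone that p38 signalling phosphorylates through Mapkapk2 and that binds actin filaments, stood at 805, 1325 and 984 CPM in type I untrained and at 1483, 515 and 1699 CPM in type I trained libraries. In type IIb fibres it stood at 192, 189 and 691 CPM without training and at 285, 205 and 112 CPM with it. Library 2 of type I trained fibres, at 515 CPM, was below library 3 of type IIb untrained fibres, at 691 CPM, so the fibre types overlapped over all 12 libraries while each training state on its own did not. The averaged log2 fold change was 2.08 (SE 0.42, n = 6 against 6, edgeR adjusted p = 0.0116), or 4.15-fold in pooled counts. It was 1.54 (SE 0.59, edgeR adjusted p = 0.230) in untrained mice and 2.62 (SE 0.61, edgeR adjusted p = 0.0687) in trained mice. The averaged call was lost when the number of detected genes entered the fit (2.25, edgeR adjusted p = 0.0785). In trained mice a call appeared without type I trained library 2 (edgeR adjusted p = 0.0225), type IIb untrained library 1 (0.0493) or type IIb untrained library 3 (0.0264). Hspb1 lies at chr5:135887919-135889563 (mm10, plus strand, ENSMUSG00000004951) and overlaps no other gene, but the pseudogene Hsp25-ps1 is a copy of it, was listed at 3.81 to 63.5 CPM, and could have taken some of its reads.

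Hspb6, a partner of Cryab in mixed oligomers and a target of protein kinase A, stood at 1480, 2707 and 1878 CPM in type I untrained fibres. The type I trained fibres split, with 5100 and 5270 CPM in libraries 1 and 2 and 765 CPM in library 3. Type IIb fibres had 229, 790 and 750 CPM without training and 932, 765 and 723 CPM with it. Library 3 of type I trained fibres therefore lay within the type IIb range, and it was also the library with the lowest mitochondrial share of counts, 5.86% against 14.6% to 34.7% in the other 11. The part of that difference in the Hspb6 level was not tested. Smooth muscle, which is rich in Hspb6, was followed with 10 markers of smooth muscle and pericytes, summed in CPM of unscaled totals. Their sum was 32.7 to 1174 CPM in type I untrained libraries (10 of 10 counted), 16.7 to 59.8 with training (9 of 10, Kcnj8 at 0), 0 to 0.083 in type IIb untrained (1 of 10, Acta2 and Myh11 at 0) and 0 to 148 in type IIb trained libraries (8 of 10, Tagln and Cspg4 at 0). The part of these cells in the Hspb6 levels was not tested. The averaged log2 fold change was 1.99 (SE 0.41, edgeR adjusted p = 0.0119), with 1.78 (SE 0.57, edgeR adjusted p = 0.230) in untrained and 2.20 (SE 0.58, edgeR adjusted p = 0.157) in trained mice. Pooled counts, a different measure, differed 3.16-fold. Without library 3 the difference in trained mice was 2.63 (edgeR adjusted p = 0.00603). The averaged call was lost without the 3 libraries of highest endothelial content (2.07, edgeR adjusted p = 0.0516), without the 2 libraries with the fewest genes (1.87, edgeR adjusted p = 0.0657) and with limma-voom and quality weights (1.12, adjusted p = 0.579). The gene lies at chr7:30552178-30555443 (mm10, plus strand, ENSMUSG00000036854), and 8.79% of its exon bases overlap Gm38670, Lin37 or Proser3.

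Hspb7, a small heat shock protein of heart and skeletal muscle that binds filamin C, was present in all 6 type I libraries and almost absent from type IIb libraries. It had 1778, 1157 and 3609 counts in type I untrained fibres, which is 106, 82.7 and 95.4 CPM. Type I trained fibres had 171, 116 and 1856 counts, or 21.2, 13.6 and 82.3 CPM. Of the 6 type IIb libraries, 4 had 0 counts, library 2 of untrained mice had 103 (8.26 CPM) and library 2 of trained mice had 1. A count of 0 allows up to 3 counts, between 0.216 and 0.386 CPM in those 4 libraries.

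The averaged log2 fold change of Hspb7 was 7.26 (SE 1.81, edgeR adjusted p = 0.0435), a fitted value that depends on how zeros are handled. In pooled counts the ratio was 46.4 over all libraries and 30.2 in untrained mice. In trained mice 2143 counts stood against 1, a ratio of 1489 with a 95% counting interval of 267 to 58831. The separate comparisons did not pass the test, with edgeR adjusted p = 0.248 in untrained and 0.293 in trained mice. Among the alternative fits Hspb7 was called in 3 of 24 in untrained and in 1 of 24 in trained mice. With the number of detected genes as a covariate the averaged value was 5.88 (edgeR adjusted p = 0.129). The averaged call was lost in 12 of 23 alternative fits, among them those without any 1 of 8 libraries, namely type I untrained 1, 2 or 3, type I trained 3, type IIb untrained 3 and type IIb trained 1, 2 or 3, in which the edgeR adjusted p lay between 0.0816 and 0.116. It was 0.441 without the 3 libraries of highest endothelial content. Without type IIb untrained library 2, which holds 103 of the 104 type IIb counts, the log2 fold change was 11.42 (edgeR adjusted p = 0.00634). Hspb7 lies at chr4:141420779-141425311 (mm10, plus strand, ENSMUSG00000006221) and overlaps no other gene.

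Hspb8, the small heat shock protein that binds Bag3, had levels that overlapped in all 4 groups. It stood at 121, 173 and 172 CPM in type I untrained and at 204, 95.8 and 242 CPM in type I trained libraries. Type IIb libraries had 284, 94.8 and 138 CPM without training and 151, 251 and 86.6 CPM with it. The 6 type I libraries averaged 168 ± 53.2 CPM and the 6 type IIb libraries 168 ± 81.8 CPM (mean ± SD, n = 6). The averaged log2 fold change was -0.00 (95% interval -1.04 to 1.03, edgeR adjusted p = 1.00), so a difference of up to about 1 log2 unit either way lies inside the interval. It was -0.15 (edgeR adjusted p = 0.991) in untrained and 0.15 (edgeR adjusted p = 1.00) in trained mice. The gene lies at chr5:116408491-116422864 (mm10, minus strand, ENSMUSG00000041548).

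Bag3, the co-chaperone that joins Hspb8 to Hsc70, had a wider interval than Hspb8 (0.36 to 5.00 in the average), and neither gene was called. The Bag3 and Hspb8 differences were not tested against each other. It stood at 414, 894 and 240.0 CPM in type I untrained and at 1776, 400 and 498 CPM in type I trained libraries. Type IIb libraries had 0, 59.5 and 215 CPM without training and 156, 96.3 and 113 CPM with it. Each of the 6 type I libraries was above each of the 6 type IIb libraries, the nearest being 240.0 and 215 CPM. The averaged log2 fold change was 2.68 (SE 1.07, edgeR adjusted p = 0.216), with a 4.99-fold difference in pooled counts. It was 2.49 (SE 1.50, edgeR adjusted p = 0.505) in untrained and 2.87 (SE 1.52, edgeR adjusted p = 0.664) in trained mice. The library without a Bag3 count, type IIb untrained library 1, was also the one with the fewest genes detected, 3636. When it was left out the averaged log2 fold change was 2.40 and passed the test (edgeR adjusted p = 0.0251). Bag3 lies at chr7:128523616-128546981 (mm10, plus strand, ENSMUSG00000030847).

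The number of genes whose libraries did not overlap was also taken, without a model. In untrained mice every type I library was above every type IIb library for 5 of the 6 genes, all but Hspb8, where 22.8% of all genes tested did the same. In trained mice this held for 4 of the 6, Cryab, Hspb1, Hspb7 and Bag3, against 6.72% of all genes. Over the 6 libraries of each fibre type it held for 3 of the 6, Cryab, Hspb7 and Bag3, against 2.50%.

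**Figure D2:**
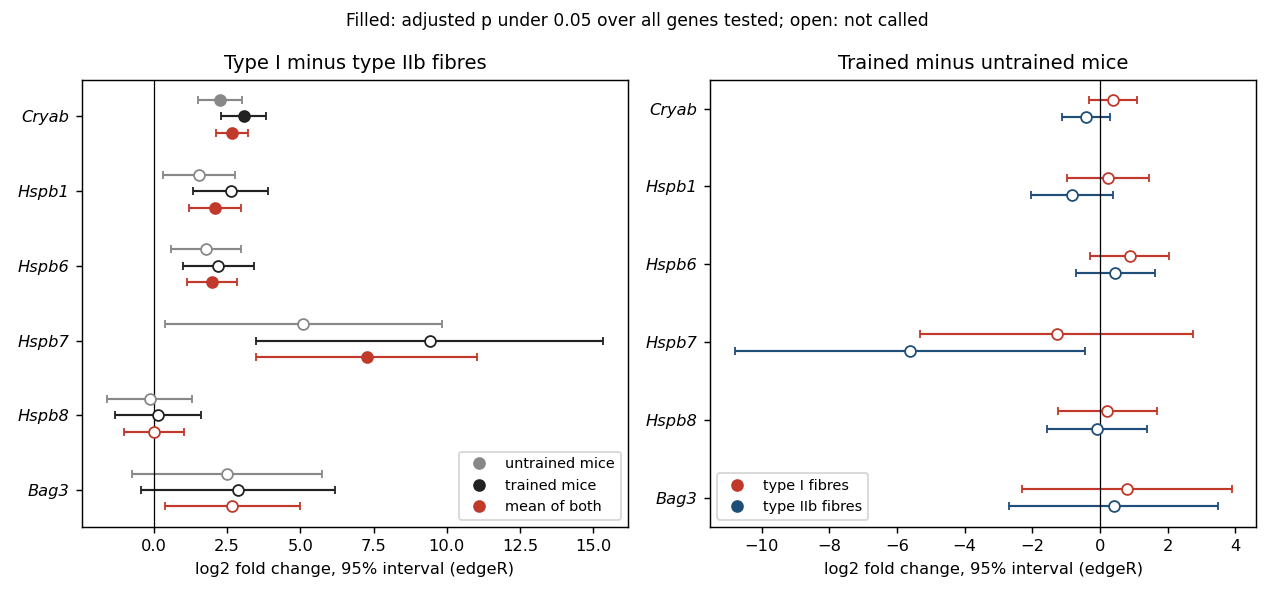
Log2 fold change (horizontal axis) of each gene with its 95% interval from edgeR; left, type I minus type IIb fibres in untrained mice, trained mice and their mean; right, trained minus untrained mice in each fibre type. Filled points passed an adjusted p of 0.05 over all genes: Cryab in all 3 fibre-type comparisons, Hspb1, Hspb6 and Hspb7 in the mean, and none for training.

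Levels of different genes were compared per length, with the lengths given by the authors. These were 831 bases for Cryab, 1247 for Hspb6, 916 for Hspb1 and 1282 for Hspb8. The exon bases of these genes in the GENCODE annotation were 1479, 2299, 1031 and 1950, and for Hspb7 and Bag3 the lengths were equal. The order of Hspb6 and Hspb1 therefore depends on the length used. Cryab had the highest mean FPKM in every group, followed by Hspb6 and Hspb1, and Hspb7 had the lowest. In type I untrained fibres the means were 7635 ± 714 FPKM for Cryab, 2094 ± 347 for Hspb6 and 1472 ± 194 for Hspb1 (SD, n = 3), and the libraries of these neighbours did not overlap. Bag3 at 248 ± 116 FPKM and Hspb8 at 160 ± 37 FPKM did overlap, and Hspb7 was last at 46.2 ± 12.6 FPKM. In type IIb trained fibres Cryab stood at 745 ± 102 FPKM, Hspb6 at 520 ± 95.1 and Hspb1 at 173 ± 73.8 (SD, n = 3). The lower end of the order changed between the fibre types: Bag3 had the higher mean in both type I groups and Hspb8 in both type IIb groups, where Hspb8 stood at 124 ± 77.2 and 97.4 ± 36.4 FPKM and Bag3 at 32 ± 39.3 and 38.6 ± 12.1 FPKM (untrained and trained, SD, n = 3). In type I trained fibres the neighbours from Hspb6 to Hspb8 overlapped, in type IIb untrained fibres those from Hspb6 down to Hspb7, and in type IIb trained fibres Hspb1 and Hspb8, so the order within these runs is not set by the libraries.

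The 6 genes together summed to 9538 to 18870.0 FPKM in type I libraries and to 1444 to 2436 FPKM in type IIb libraries, ranges that did not overlap. Within that sum Cryab made up 63.8% ± 7.73 in type I and 50.9% ± 12.4 in type IIb fibres (SD, n = 6), with overlapping ranges. Hspb8 made up 1.25% ± 0.403 in type I and 6.08% ± 2.61 in type IIb fibres (SD, n = 6), and its ranges, 0.659% to 1.78% and 3.84% to 9.36%, did not overlap. The ratio of Cryab to Hspb8 was 35 to 84.4 in type I libraries and 5.28 to 14 in type IIb libraries. The ratio of Hspb8 to Bag3, its binding partner, was 0.229 to 1.43 in type I libraries and 1.28 to 5.2 in the 5 type IIb libraries with a Bag3 count, with a small overlap. These shares and ratios were chosen after the levels had been seen and are given without a test.

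**Figure D3:**
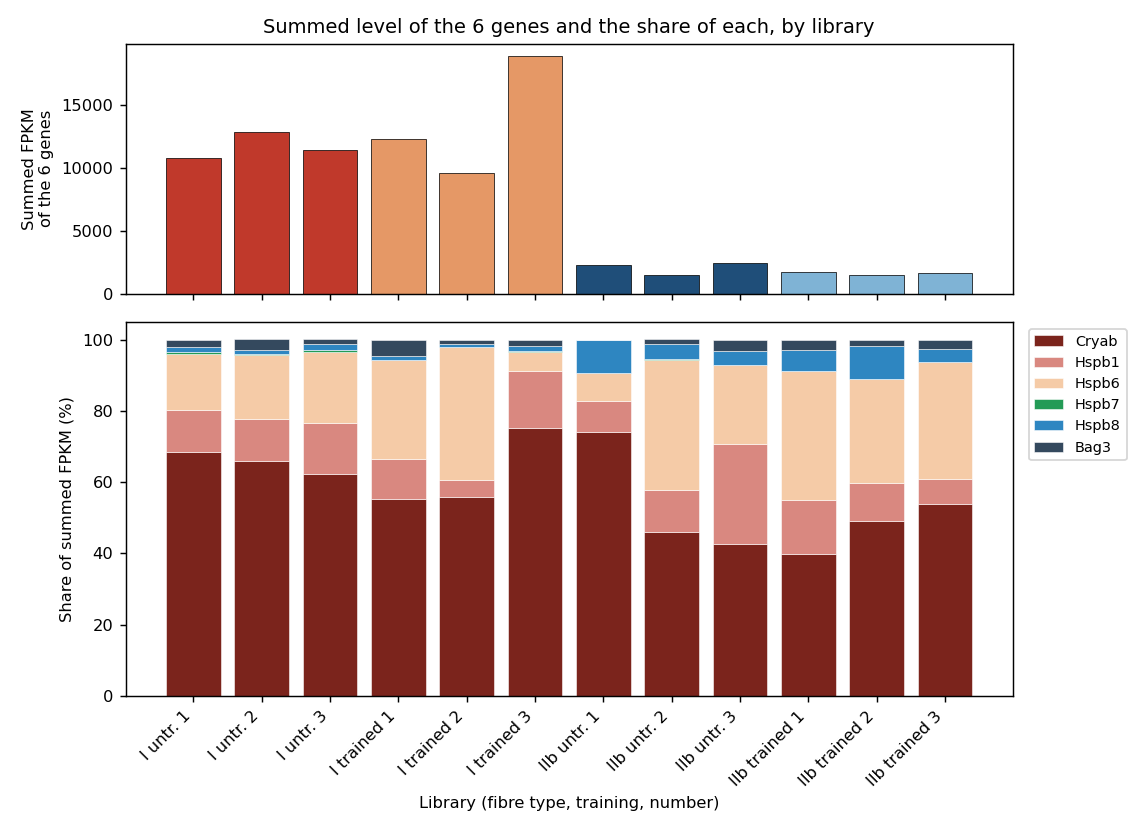
Upper panel, summed FPKM of the 6 genes in each library; lower panel, the percentage of that sum from each gene (stacked bars, libraries on the horizontal axis). The sums of type I libraries lie between 9538 and 18870.0 FPKM and those of type IIb libraries between 1444 and 2436 FPKM, where Hspb8 takes 3.84% to 9.36% of the sum.

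Treadmill training did not give a call for any of the 6 genes in either fibre type. In type I fibres 0 of 6 were called in either direction, where 0% of all genes were called, and the log2 fold changes were 0.39 for Cryab, 0.25 for Hspb1, 0.88 for Hspb6, -1.28 for Hspb7, 0.22 for Hspb8 and 0.79 for Bag3 (edgeR adjusted p = 1.00 for each). The 95% interval for Cryab ran from -0.33 to 1.10 and that for Bag3 from -2.31 to 3.89, so the precision differed widely between the genes. None of the 6 reached an unadjusted p of 0.05 there, where 48 genes were higher and 297 lower at that level. DESeq2 called 0 of the 6 and 59 genes in all, and limma on FPKM called 0 genes. With limma-voom and quality weights 7 genes were called, 1 of them a member, Cryab (0.81, adjusted p = 0.0367). The groups were separate for 1 of the 6, Hspb7, whose trained libraries at 13.6 to 82.3 CPM all lay below the untrained ones at 82.7 to 106 CPM, against 11.7% of all genes separate in either direction. With the number of detected genes as a covariate the log2 fold change of Hspb7 was 0.30 in place of -1.28 (edgeR adjusted p = 1.00). The summed immediate early genes, which respond within minutes to a stimulus, were taken in CPM of unscaled totals. In type I libraries they gave 1159 to 4554 CPM after training and 5437 to 8029 CPM without it. The TMM factors were 0.833, 0.842 and 1.62 in trained and 1.428, 1.065 and 1.514 in untrained libraries 1 to 3. Divided by these factors, the sum of trained library 1 lay above those of untrained libraries 1 and 3. Scaled sums were therefore not separate, and the part of these genes in the values above was not tested.

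In type IIb fibres 0 of 6 were called, again with 0% of all genes. The log2 fold changes with training were -0.41 for Cryab (edgeR adjusted p = 0.869), -0.83 for Hspb1 (0.776), 0.45 for Hspb6 (0.965), -0.08 for Hspb8 (1.00) and 0.41 for Bag3 (1.00). Hspb7 had -5.61 (edgeR adjusted p = 0.597), which rested on the 103 counts of untrained library 2 against 1 count in all trained libraries, and without that library the value was 2.66 (edgeR adjusted p = 0.599). It was the only 1 of the 6 with an unadjusted p under 0.05, where 807 genes were higher and 158 lower. DESeq2, limma-voom and limma on FPKM each called 0 of the 6, while DESeq2 called 364 genes in all. The libraries of the 2 groups were separate for 0 of 6, against 4.73% of all genes.

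Averaged over the fibre types, training gave 0 of 6 called with 0% of all genes called, and 1 of the 6, Hspb7, reached an unadjusted p under 0.05, where 240 genes were higher and 209 lower. The difference between the training effects in the fibre types was tested directly, and 0 of 6 passed, with 0% of all genes called. The lowest adjusted p of the 6 in that test was 0.741 with edgeR, for Cryab, and 0 of the 6 reached an unadjusted p of 0.05, where 113 genes had a higher and 937 a lower effect in type I fibres. DESeq2 called 227 and 390 genes in these tests, and DESeq2, limma-voom and limma on FPKM called 0 of the 6. No training effect that differed between the fibre types was thus detected for these genes.

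No gene of the other chaperone lists was called in any comparison. Of the 10 listed partners of Bag3 and of selective autophagy, 9 were tested and 0 were called, with a median log2 fold change between the fibre types of 0.43 in the average, under the 0.60 of all genes. Hspa8, the Hsc70 that Bag3 recruits, stood at 1303 to 2564 CPM in type I and at 990 to 1772 CPM in type IIb libraries (log2 fold change 0.43, SE 0.24, edgeR adjusted p = 0.421). Synpo2, which anchors Bag3 to actin bundles, had 0.18 (SE 0.33, edgeR adjusted p = 0.909) and Sqstm1, the autophagy receptor, 0.74 (SE 0.45, edgeR adjusted p = 0.464). Stub1, the ubiquitin ligase of the complex, had counts in 2 of 12 libraries only, 74 in type I untrained library 3 and 20 in type IIb trained library 3, and was not tested.

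Among 10 sarcomere proteins that these chaperones guard, 0 were called, with 7 of 10 positive, beside 65.1% of all genes, and a median of 0.41, beside 0.60. Flnc, the filamin C that Bag3 and Hspb7 bind, stood at 721, 502 and 169 CPM in type I untrained and at 308, 159 and 958 CPM in type I trained libraries. In type IIb fibres it stood at 0, 64.5 and 42.7 CPM without training and at 59.6, 135 and 166 CPM with it. These ranges overlapped by a small margin, 159 against 166 CPM (log2 fold change 2.84, SE 0.90, edgeR adjusted p = 0.101). Des, desmin, which Cryab binds, had 0.70 (SE 0.65, edgeR adjusted p = 0.723).

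Of the 16 heat shock factors and inducible targets, 14 had a positive log2 fold change for type I fibres in the average, beside 65.1% of all genes, with a median of 1.10 beside 0.60, and 0 were called where 1.11% of all genes were called higher. Hspa1b, an inducible Hsp70 gene, stood at 330.3, 584 and 188 CPM in type I untrained and at 1794, 198 and 171 CPM in type I trained libraries. In type IIb fibres it stood at 214, 1.68 and 85.9 CPM without training and at 68.6, 37 and 27.5 CPM with it. Its log2 fold change was 2.95 (SE 0.80, edgeR adjusted p = 0.0672) and that of its near-identical neighbour Hspa1a 2.87 (SE 1.10, edgeR adjusted p = 0.183), and reads may be shared between these copies. Hsf1, the main stress-responsive factor, had 0.69 (SE 1.59, edgeR adjusted p = 0.944) and Dnajb1, an Hsp40 co-chaperone, 1.08 (SE 0.69, edgeR adjusted p = 0.509). Type I trained library 1, the highest for Hspa1b, was also the highest for Bag3, at 1776 CPM. The lists of kinases that act on small heat shock proteins and of immediate early genes had 0 of 8 and 0 of 13 tested genes called, with medians of 0.96 and 1.39. Of 5 other small heat shock genes 2 were tested, Hspb2 and Hspb3, and 0 called.

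**Figure D4:**
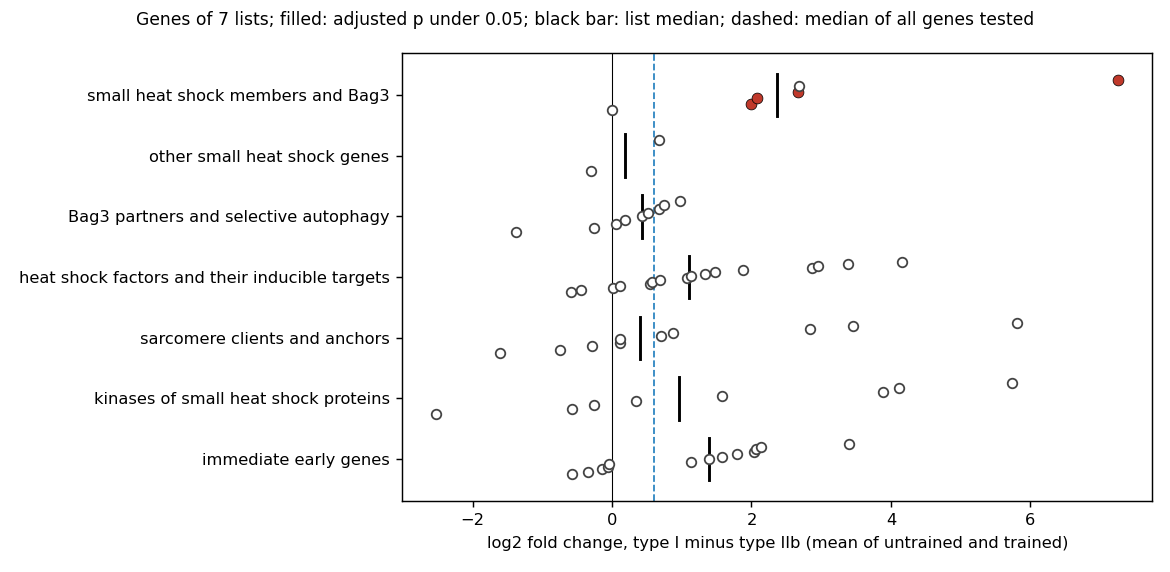
Log2 fold change of type I minus type IIb fibres, mean of untrained and trained mice (horizontal axis), for each tested gene of 7 lists (vertical axis); filled points passed an adjusted p of 0.05, black bars are list medians and the dashed line is the median of all genes, 0.60. The filled points are Cryab, Hspb1, Hspb6 and Hspb7, and no gene of the other 6 lists is filled.

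Genes with the most similar pattern were found by Pearson correlation of log2(CPM + 1) over the 12 libraries, as a description, since all genes that differ between fibre types correlate across these groups and share each library's depth. Closest to Cryab were Myh7, Myom3 and Esrrb (r = 0.97 for each). Closest to Hspb1 were Hsp25-ps1 (r = 0.94), Mcl1 (0.93) and Kcnma1 (0.90). Closest to Hspb6 were Use1 (r = 0.95), AC160336.1 (0.93) and Mettl21c (0.90). Hspb7 was closest to 5730419F03Rik (r = 0.98), Dusp18 (0.95) and Fhl2 (0.94), and Bag3 to Slc16a1 (r = 0.98), Ctsl (0.96) and Retreg1 (0.96). Hspb8 had weaker partners, Ccdc90b (r = 0.84), Gm18913 (0.81) and E030024N20Rik (0.78), of which Gm18913 and E030024N20Rik did not exceed 3.35 CPM in any library. Among the 6 genes themselves the correlation over the 12 libraries was highest for Cryab and Hspb1 at 0.85, Cryab and Hspb7 at 0.84 and Hspb6 and Bag3 at 0.81, and lowest for Hspb6 and Hspb8 at -0.27. Within the 6 type I libraries the values ran from -0.82 for Hspb6 and Hspb7 to 0.97 for Hspb1 and Hspb8. Within the 6 type IIb libraries they ran from -0.92 for Cryab and Hspb6 to 0.97 for Hspb6 and Bag3, and these include the library with 0 Bag3 counts.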

How the data were processed

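The 12 libraries of single-fibre RNA were made with SMART-Seq HT and Nextera XT, per the labels' protocols; these kits do not keep the strand. Reads were processed with TopHat2 on mm10, per the submitters' processing notes; no counting tool or annotation was named. The deposited values are read counts per gene and FPKM, both computed by the authors; the 12 tables of single libraries hold the same values as the series tables.

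The 6 genes and all lists were chosen with earlier results of these data known. Counts were analysed with edgeR 4.0.16 in R 4.3.3 (TMM, robust quasi-likelihood F test, all 12 libraries in one fit with 4 group means, 8 residual degrees of freedom). Genes needed a count of about 10 in a group's worth of libraries and 15 in total, which left 11747. Adjusted p is Benjamini-Hochberg over all of them, called under 0.05. SE was derived from the fold change and the F statistic; intervals are 95%. Pooled folds divide summed counts by summed scaled totals, and their counting interval covers counting error only. Depth was 8026397 to 24995288 counts per library, so 1 count equals 0.04 to 0.125 CPM of unscaled total. FPKM was used for levels between genes and, as log2(FPKM + 1) or log2(FPKM + 0.1), in limma 3.58.1 as an alternative; DESeq2 1.42.0, limma-voom, RLE size factors, no low-count filter, no robust prior, a replicate block, detected genes as covariate, totals without mitochondrial genes, only the groups compared, and fits without single libraries or sets of them were the others. The labels name no batch.

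Named genes were the 6 members, any listed gene passing the test, 11 others fixed by name (Hspb2, Hspa8, Stub1, Synpo2, Sqstm1, Flnc, Des, Hsf1, Hspa1a, Hspa1b, Dnajb1) and the 3 genes most like each member. The fit was tested on simulated data.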

Additional observations from a re-analysis of the deposited data

How the results depend on the processing

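Cryab kept its direction between the fibre types in every alternative fit, and its averaged call in 24 of 24. It stayed called in 23 of 25 fits for untrained and in 24 of 25 for trained mice. Hspb1, Hspb6, Hspb7 and Bag3 also kept their direction between the fibre types in all fits run. The averaged call held for Hspb1 in 23 of 24, for Hspb6 in 21 of 24 and for Hspb7 in 11 of 23 fits, where DESeq2 gave Hspb7 no adjusted p. Bag3 became called in 4 of 24: with no filter on low counts (adjusted p = 0.00699), with FPKM in limma at a pseudocount of 1 (0.0155), without the 2 libraries of lowest gene number, type IIb untrained 1 and type IIb trained 1 (0.0385) and without type IIb untrained replicate 1 (0.0251). The number of the 6 genes called in untrained mice, 1, became 0 with only the groups compared and 3 with FPKM in limma at either pseudocount, 1 or 0.1 (Cryab, Hspb6 and Hspb7). Of the genes of the main fit, 28, 292 and 275 were called higher in those fits, in that order, beside 30 in the main fit. In trained mice, 1 became 2 with FPKM at either pseudocount (Cryab and Hspb1), and leaving out 1 library at a time gave 1 to 2. The FPKM fits called 88 and 81 of those genes higher in trained mice, beside 28 in the main fit, and fits without 1 library called 13 to 40. In the average, 4 became 2 with the number of detected genes as covariate and 2 without the 3 endothelial-rich libraries (type I untrained 1 and 3, type IIb trained 3). These fits called 78 and 57 of the genes higher in the average, beside 130 in the main fit. For training in type I fibres 0 became 1 with limma-voom and quality weights. The cause of these moves was not tested.

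No value that changed sign passed the test, before or after. The largest such change was that of Hspb7 with training in type IIb fibres, from -5.61 to 2.66 without type IIb untrained replicate 2. For Hspb8 between the fibre types in untrained mice the log2 fold change was 0.09 with RLE size factors and with DESeq2, 0.48 with the detected genes as covariate, 0.11 with limma-voom, 0.52 with FPKM at either pseudocount and 0.40 without the 2 libraries of lowest gene number. In trained mice it was -0.19 without the 3 endothelial-rich libraries. In the average it was 0.13 with RLE and with DESeq2, 0.03 with no filter, 0.44 with the covariate, 0.11 with limma-voom, 0.54 with FPKM at either pseudocount and 0.26 without the 2 libraries of lowest gene number. Leaving out 1 library at a time gave Hspb8 -0.44 to 0.42 in untrained mice, -0.23 to 0.61 in trained mice and -0.28 to 0.29 in the average.

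For training in type I fibres Hspb1 was -0.01 with RLE and with DESeq2, -0.24 with FPKM at either pseudocount and -0.10 without the 3 endothelial-rich libraries. In the same comparison Hspb8 was -0.08 with RLE and with DESeq2, -0.03 with the covariate and -0.21 with FPKM at either pseudocount. Hspb7 was 0.30 with the covariate and Hspb6 -0.40 with limma-voom. Cryab was -0.02 and Bag3 -0.05 without the 3 endothelial-rich libraries. Leaving out 1 library gave -0.11 to 0.62 for Hspb1, -0.11 to 0.52 for Hspb8 and -0.20 to 1.41 for Bag3, lowest without type I trained replicate 1. For training in type IIb fibres Hspb8 was 0.05 with the covariate, 0.31 with limma-voom, 0.09 without the 3 endothelial-rich libraries and 0.51 without the 2 libraries of lowest gene number. Without those 2 libraries Hspb6 was -0.09 and Bag3 -0.43. Leaving out 1 library gave -1.17 to 0.07 for Hspb1, -8.35 to 2.66 for Hspb7, -0.54 to 0.48 for Hspb8 and -0.18 to 2.03 for Bag3. Of 286 further values for the averaged training effect and the interaction, 38 changed sign and 0 were called.

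With the replicate number as a block the averaged log2 fold change was 2.67 for Cryab, 2.10 for Hspb1, 1.92 for Hspb6, 0.02 for Hspb8 and 9.55 for Hspb7, and Hspb7 lost its call (adjusted p = 0.0666), which left 3 of the 6 called. That fit called 72 genes higher in the average, beside 130 in the main fit. Same-numbered libraries did not deviate together (r from -0.12 to 0.20 over 18 pairs, 4 of them over 0.1), so the numbers were not treated as pairs. These pairs include trained with untrained libraries, which cannot share a mouse. Whether type I and type IIb fibres of one number came from the same mouse cannot be shown in this way. The number of all genes called depended on the tool: between the fibre types in untrained mice edgeR called 54, DESeq2 1031 and limma-voom 2100, in trained mice 63, 346 and 175, and in the average 227, 1098 and 1135. RLE size factors moved the median of all genes by 0.32 in untrained mice and by -0.29 for training in type I fibres. Hspb7, with 4 of 6 type IIb libraries at 0 counts, and Bag3, with 1 of 6 at 0, had the widest intervals of the 6.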
